A study of Mus musculus with 6 samples.

Results

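Xcr1 conventional dendritic cells, the type 1 conventional dendritic cells (cDC1), were examined in the obstructed kidney of 6 C57BL/6 mice, taken 7 days after 1 ureter had been tied off (unilateral ureteral obstruction, UUO). In all 6 mice the ureter was obstructed; 3 received SH045 and 3 received Vehicle. By its title the study is about blocking the cation channel TRPC6. Dose, route and the animals' age are not given in the sources used here, and contralateral kidneys were not analysed here, so the comparison is between 2 obstructed groups. Each mouse gave 1 Singleron GEXSCOPE single-cell library, made from tissue digested to a cell suspension and aimed at 6000 cells. The cells were chosen by their counts of unique molecular identifiers (UMIs, 1 per captured transcript). A kept barcode had at least 200 genes and at most 50% mitochondrial UMIs, and a member had at least 2 UMIs of Xcr1 plus Clec9a, at most 5 of C1qa, C1qb and C1qc, fewer than 2 of Cd3e, Cd3d, Cd3g and Trac, and fewer than 3 of Ccr7 plus Fscn1. This gave 829 of 23578 kept barcodes (3.52%): 103, 117 and 101 in SH045 libraries 1 to 3, and 124, 202 and 182 in Vehicle libraries 1 to 3.

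As background, cDC1 are rare dendritic cells that take up dying cells and present their antigens on MHC class I to CD8 T cells, a route called cross-presentation. Xcr1 is the receptor for Xcl1, a chemokine made by NK cells and CD8 T cells, and Clec9a binds actin exposed on dead cells. The factors Irf8, Batf3 and Id2 set up the lineage, which depends on the growth factor Flt3 ligand. Conventional dendritic cells of the second type (cDC2), marked here by Cd209a, mainly present antigen on MHC class II to CD4 T cells.

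The choice rests on Xcr1 and Clec9a themselves, so their levels are a description. Both genes had a UMI in 553 members, Xcr1 alone in 231 and Clec9a alone in 45. The members closest to the threshold were 126 cells with exactly 2 UMIs, and 151 cells with 1 UMI lay just outside it. Of cells with 2 or more, 136 were left out by the C1q limit, 21 by the T-cell limit and 4 by the Ccr7 and Fscn1 limit. Summed Xcr1 stood at 1004, 858 and 785 CPM with SH045 and 814, 709 and 836 CPM with Vehicle, and Clec9a at 307, 278 and 271 CPM with SH045 and 309, 254 and 292 CPM with Vehicle, where CPM is the count per 1000000 UMIs summed over the members of a library. The groups overlapped for both genes. Median depth was 5479, 5241 and 5852 UMIs per member with SH045 and 4093, 5684.5 and 5784.5 with Vehicle. No Trpc6 UMI was found in 829 members, which allows a share of cells with a UMI of up to 0.362% as far as counting error goes. This sets no limit on cells that express the gene below detection. Trpc6 was scarce throughout, with 37 UMIs over all kept barcodes. Cd209a dendritic cells and T cells had 0, C1q macrophages 1 and Ccr7 dendritic cells 7. Its absence is thus not particular to the Xcr1 dendritic cells.

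Genes outside the rule bore out the label. With every cell thinned to 2000 UMIs, Naaa, a lysosomal amidase, had a UMI in 96.3% (lowest 95.1%, highest 97.6%) of members as the mean over 6 libraries, against 39.1% of Cd209a dendritic cells and 3.46% of T cells. Itgae, which encodes the integrin CD103, was seen in 48.1% (lowest 44.7%, highest 51.5%) of members, 0.815% of Cd209a dendritic cells and 6.01% of T cells. Wdfy4, needed for cross-presentation of cell-bound antigen, was seen in 50.4% (lowest 45.1%, highest 59.2%) against 11.4% of Cd209a dendritic cells. All 3 markers were thus found far more often in these cells than in the other classes. Irf8 was detected in 93.0% of members against 5.76% of Cd209a dendritic cells, Ifi205 in 72.1% against 4.74%, and Tlr3, a sensor of double-stranded RNA, in 31.0% against 0.637%. Irf8 was also in 28.9% of macrophages and 23.3% of Ccr7 dendritic cells. Other identity genes separated the classes less well. Batf3 was in 30.6% of members, 19.0% of Cd209a and 26.3% of Ccr7 dendritic cells and 16.0% of macrophages. Cadm1 was in 35.6% of members and 20.7% of macrophages. Ly75 was in 8.42% of members and 13.3% of Ccr7 dendritic cells. The cDC2 markers were scarce: Cd209a was found in 1.07% of members, Itgam in 0.984% and Sirpa in 0.592%. Unthinned, Cd209a was found in 0.660% of members with SH045 and 3.82% with Vehicle, as means over libraries. At least 2 Cd209a UMIs were found in 12 members, which the rule did not leave out. They were 0, 0 and 2 in SH045 libraries 1 to 3 and 3, 3 and 4 in Vehicle libraries 1 to 3. Cd207, which marks cDC1 of some other tissues, was found in 0.165%. Kap, a proximal tubule transcript that immune cells should lack, was seen in 8.06% of members, 9.49% of Cd209a dendritic cells, 11.8% of macrophages and 14.9% of T cells, so a share of this order is background. The C1q genes had no UMI in 483 members; C1qa was found in 4.20% of members, 4.71% of T cells and 95.4% of macrophages.

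**Figure D1:**
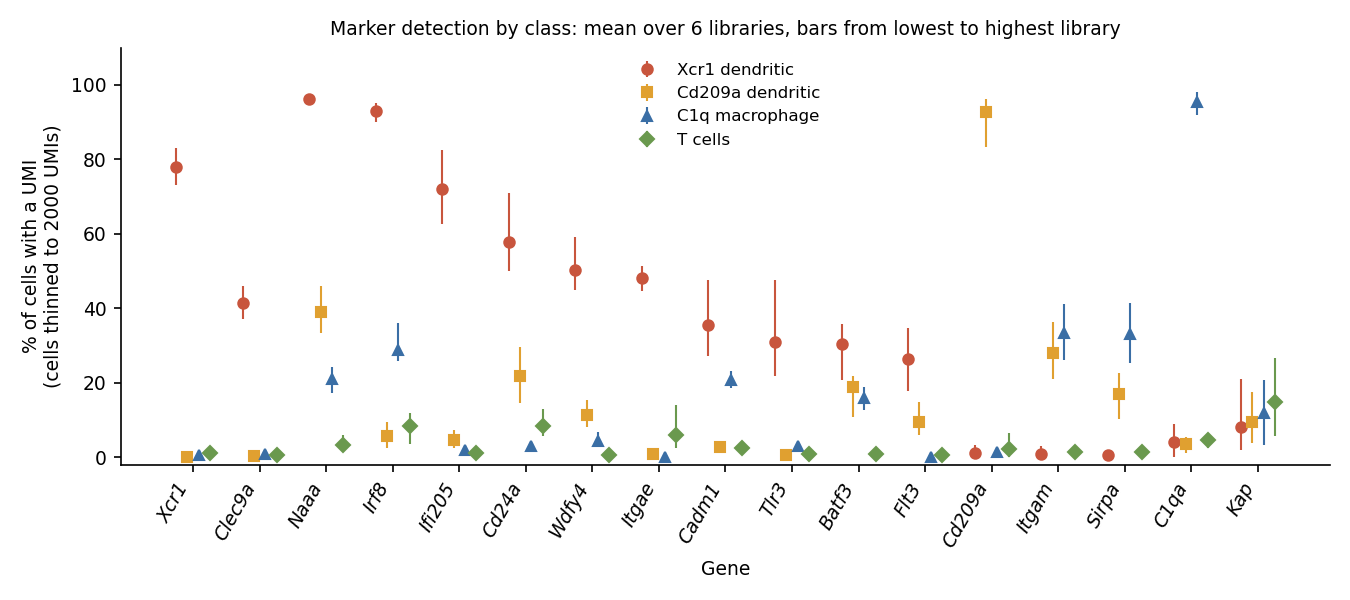
Share of cells with at least 1 UMI of each gene (vertical axis, percent, cells thinned to 2000 UMIs) in 4 classes of cells; points are means over 6 libraries and bars run from the lowest to the highest library. Naaa reached 96.3% and Irf8 93.0% in Xcr1 dendritic cells, while Cd209a was at 1.07% there and 92.9% in Cd209a dendritic cells; Xcr1, Clec9a, Cd209a and C1qa were used by the rules for the classes.

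Some features of the libraries touch what follows. Total UMIs per library ran from 21186872 to 32256602, and the members' UMIs from 534299 to 1205127. Across the 25769 different barcodes, 209 occurred in over 1 library; 6 members shared a barcode with another library and 0 barcodes were members in both. Longer transcripts were relatively higher with SH045: across the 5905 genes tested, which are not independent replicates, the log2 change had a Spearman correlation of 0.398 with transcript length, so values with that trend removed are given beside the results it moved most. Within single libraries the correlation of a gene's level with length, relative to the mean of the 6, ran from -0.281 in Vehicle libraries 1 and 2 to 0.444 in SH045 library 1, the next highest being SH045 library 3 at 0.129. Vehicle library 1 carried 1134 CPM of the erythroid and fat marker list in its members against 20.7 to 62.1 CPM in the other 5 libraries. The summed marker lists of 8 other cell types overlapped between groups in the members, namely migratory and plasmacytoid dendritic cells, T and NK cells, B and plasma cells, proximal and other tubule, endothelium, and erythroid cells and fat; those of cDC2, of monocytes and neutrophils, and of fibroblasts did not, and stand beside the genes below. The share of members with no C1q UMI was 68.9, 72.6 and 61.4% with SH045 and 59.7, 58.9 and 39.6% with Vehicle, so the groups did not overlap. Among those members the T and NK and the plasmacytoid sums no longer overlapped, while those of cDC2 and of fibroblasts did.

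The first comparison asked how common these cells were under SH045. Of kept barcodes they made up 3.01, 2.94 and 2.79% in SH045 libraries 1 to 3 and 2.99, 4.74 and 4.40% in Vehicle libraries 1 to 3. The 3 SH045 values lay close together, and Vehicle library 1 fell among them while the other 2 Vehicle libraries were higher. Means were 2.91 ± 0.115 (SD, n = 3) with SH045 and 4.04 ± 0.925 (SD, n = 3) with Vehicle, a ratio of 0.720, with an exact two-sided permutation p of 0.2 where 3 against 3 libraries can reach 0.1 at the lowest. Exact Clopper-Pearson 95% intervals, which cover counting error alone, ran from 2.28 to 3.38% in the lowest library and from 4.12 to 5.42% in the highest. With members held to 0 C1q UMIs the log2 ratio was -0.09 (exact p = 0.8) in place of -0.47. With a marker minimum of 1 (-0.53), a common UMI minimum of 3175 (-0.29) or the top 5% of Scrublet scores removed (-0.47), every Vehicle library was above every SH045 library (exact permutation p = 0.1 in each).

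Among dendritic cells the balance lay the other way. Of all Xcr1, Cd209a and Ccr7 dendritic barcodes, the Xcr1 cells were 47.5, 49.2 and 45.7% in SH045 libraries 1 to 3 and 25.7, 43.1 and 34.4% in Vehicle libraries 1 to 3. Every SH045 library was above every Vehicle library, and Vehicle library 1 was the lowest. The means were 47.4 ± 1.73 (SD, n = 3) with SH045 and 34.4 ± 8.70 (SD, n = 3) with Vehicle (exact permutation p = 0.1, the smallest possible), and the log2 ratio was between 0.29 and 0.67 in the 16 alternatives run. Cd209a dendritic cells, in contrast, were 1.58, 1.96 and 2.04% in SH045 libraries 1 to 3 and 7.58, 5.04 and 7.01% in Vehicle libraries 1 to 3, as a share of kept barcodes, and thus 3.52-fold higher in Vehicle with no overlap (exact permutation p = 0.1). Ccr7 dendritic cells, the mature migrating state, were 1.75, 1.08 and 1.27% in SH045 libraries 1 to 3 and 1.09, 1.22 and 1.38% in Vehicle libraries 1 to 3, with overlap (exact permutation p = 0.7). For every Cd209a dendritic cell there were 1.91, 1.5 and 1.36 Xcr1 dendritic cells with SH045 and 0.395, 0.940 and 0.628 with Vehicle, a 2.43-fold higher mean ratio with SH045 (exact permutation p = 0.1). The number of Xcr1 dendritic cells per 100 T cells was 36.9, 63.9 and 48.8 with SH045 and 89.9, 174 and 92.4 with Vehicle, again apart (exact permutation p = 0.1). Over the 8 shares and ratios compared, Benjamini-Hochberg adjusted exact permutation p-values ran from 0.2 to 0.7, so none passed 0.05, a threshold this design cannot reach. The number of cells in the kidney was not measured: each share depends on the other cells recovered.

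**Figure D2:**
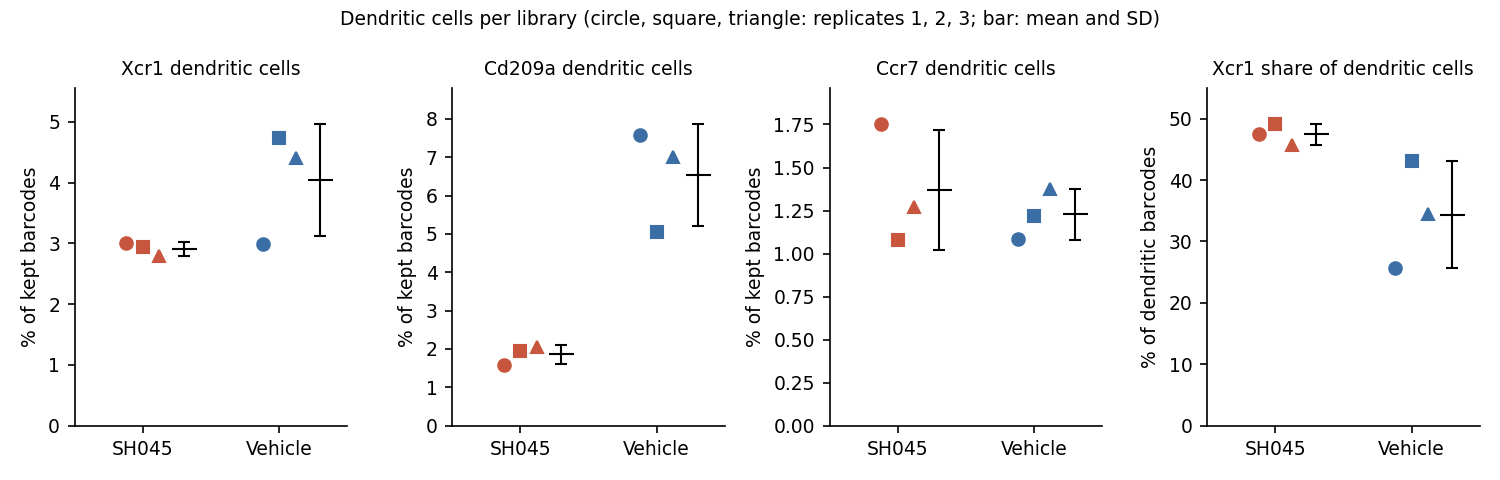
Share of Xcr1, Cd209a and Ccr7 dendritic cells among kept barcodes and of Xcr1 cells among the 3 dendritic classes (vertical axes, percent) in each library; bars are the mean and SD of 3 libraries. Cd209a dendritic cells were at most 2.04% with SH045 and at least 5.04% with Vehicle, while Xcr1 dendritic cells overlapped.

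Mki67 and Top2a were found in more Xcr1 than Cd209a dendritic cells in every library but did not separate the groups. A UMI of Mki67 or Top2a, the proliferation marker Ki-67 and a DNA topoisomerase, was found in 21.4, 11.1 and 12.9% of members with SH045 and 7.26, 10.9 and 16.5% with Vehicle at 2000 UMIs a cell. The highest and the lowest library were SH045 1 and Vehicle 1, and the others overlapped. The means were 15.1 ± 5.48 (SD, n = 3) with SH045 and 11.5 ± 4.65 (SD, n = 3) with Vehicle (exact permutation p = 0.4); unthinned they were 20.4 and 15.8%. In Cd209a dendritic cells the thinned share was 3.72 to 6.76%, in macrophages 6.78 to 9.87% and in T cells 26.1 to 46.6%. The other measure, at least 3 UMIs over the cell cycle list in the same thinned cells, did not show this order. It was met by 47.6, 41.0 and 29.7% of Xcr1 dendritic cells in SH045 libraries 1 to 3 and 42.7, 38.1 and 45.1% in Vehicle libraries 1 to 3. The share of Cd209a dendritic cells was 46.3, 52.6 and 52.7% with SH045 and 55.7, 45.6 and 50% with Vehicle. It was higher than in Xcr1 dendritic cells in every library but SH045 library 1. Of 40 listed cell cycle genes 35 were tested in Xcr1 dendritic cells, and none was called or had an unadjusted p under 0.05 by edgeR or DESeq2. Their median log2 change was 0.01, equal to that of all genes tested.

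The second comparison asked which genes differed within the members, with UMIs summed per library and tested by edgeR's quasi-likelihood test with Benjamini-Hochberg adjustment. Of 5905 genes tested, 6 were called at an adjusted p under 0.05 (0.102%): Wfdc17, Ear2, Ifitm2 and Btg1 fell with SH045 (4 genes, 0.0677%), and Itgal and Kmt2a rose (2 genes, 0.0339%). At an unadjusted p under 0.05 there were 725 genes (12.3%), 388 higher (6.57%) and 337 lower (5.71%), and in 1134 genes (19.2%) the groups did not overlap in CPM. Overlap of a gene between groups is judged on CPM, which are not scaled by edgeR's TMM factors, while the log2 changes are. Those factors were 1.14, 1.01 and 0.991 in SH045 libraries 1 to 3 and 0.962, 0.946 and 0.964 in Vehicle libraries 1 to 3. A narrow gap in CPM may thus close after scaling for a gene that is higher with SH045. DESeq2 called 5 genes, of which 3 were among the 6. It gave no adjusted p for Ear2, Itgal and Kmt2a. In every DESeq2 count of calls below, a gene without an adjusted p counts as not called. For such genes the lack of a DESeq2 call shows nothing. The median log2 change of all genes was 0.01.

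Wfdc17 (chr11:83703991-83706268, plus strand; gene positions are those of GENCODE M21 on GRCm38, the mm10 assembly), a small secreted protein of the whey acidic protein family made by activated myeloid cells, stood at 183, 114 and 136 CPM in the SH045 libraries and 393, 369 and 301 CPM in the Vehicle libraries. The Vehicle libraries were all above the SH045 libraries, with the nearest pair at 183 and 301 CPM. The log2 change was -1.42 ± 0.17 (SE; adjusted p = 0.000114, edgeR), and it passed in every alternative, including members with no C1q UMI (-0.95, adjusted p = 0.0179). Ear2 (chr14:44102654-44103534, plus strand), an eosinophil-associated ribonuclease, stood at 43.7, 38.5 and 21.9 CPM in the SH045 libraries and 105, 84.6 and 76.9 CPM in the Vehicle libraries. Those groups did not overlap either, and the log2 change was -1.46 ± 0.25 (SE; adjusted p = 0.0137, edgeR). Among members with no C1q UMI it was -0.98 and no longer called (adjusted p = 0.271). Ear2 belongs to a family of near-identical copies, so its counts may include theirs.

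Both genes are also much higher in other myeloid classes of the same libraries. Wfdc17 in Cd209a dendritic cells was 2026, 3081 and 2309.5 CPM with SH045 and 4106, 2997 and 3029 CPM with Vehicle, and Ear2 there was 604, 694 and 440.0 CPM with SH045 and 809, 990.5 and 859.8 CPM with Vehicle. In T cells, Wfdc17 was 51.9, 47.4 and 25.3 CPM with SH045 and 230.4, 85.3 and 166 CPM with Vehicle, lower in each SH045 library too. The 13 cDC2 marker genes summed in the members to 311, 135 and 222 CPM with SH045 and 520.3, 497 and 455 CPM with Vehicle, with no overlap. None was at 0 in all libraries. Of these, 6 were tested and 0 were called by edgeR or DESeq2. At an unadjusted p under 0.05, 3 were lower, beside 5.71% of all genes. Mgl2, a lectin that marks cDC2, had the most negative log2 change of these (-3.26), at 50.4, 6.42 and 3.13 CPM with SH045 and 163, 208 and 141 CPM with Vehicle. In members with no C1q UMI that sum ran from 136 to 315 CPM with SH045 and from 232 to 274 CPM with Vehicle, which overlap. The part of these cDC2 markers, and of the 12 members with at least 2 Cd209a UMIs, in the changes of Wfdc17 and Ear2 was not tested.

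Ifitm2 (chr7:140954837-140955987, minus strand), an interferon-induced membrane protein that hinders virus entry, stood at 188, 204 and 185 CPM in the SH045 libraries and 314, 323 and 336 CPM in the Vehicle libraries. Values within each group were tight and the groups lay far apart; the log2 change was -0.87 ± 0.15 (SE; adjusted p = 0.0137, edgeR). Its counts may be shared with the similar Ifitm1 and Ifitm3. Btg1 (chr10:96617006-96622809, plus strand), which restrains proliferation and keeps lymphocytes at rest, stood at 178, 152 and 232 CPM in the SH045 libraries and 296, 457 and 347 CPM in the Vehicle libraries. Vehicle library 2 was the highest, and the lowest Vehicle value was above the highest SH045 value. The log2 change was -1.09 ± 0.19 (SE; adjusted p = 0.0191, edgeR). In Ccr7 dendritic cells Btg1 was 245, 420.2 and 368 CPM with SH045 and 1120.3, 1419.6 and 1263 CPM with Vehicle, and its change in C1q macrophages alone was -1.19 (adjusted p = 0.0288, edgeR).

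Among the risers, Itgal (chr7:127296260-127335138, plus strand), the alpha chain of the integrin LFA-1 that binds Icam1 and steadies contact with T cells, stood at 102, 46.5 and 65.8 CPM in the SH045 libraries and 22.5, 24.9 and 23.3 CPM in the Vehicle libraries. SH045 library 1 was the highest, and the Vehicle libraries lay within a narrow band below all 3. The log2 change was 1.45 ± 0.28 (SE; adjusted p = 0.0333, edgeR). Kmt2a (chr9:44803355-44881296, minus strand), a histone H3 lysine 4 methyltransferase with a long transcript, stood at 89.0, 56.1 and 72.1 CPM in the SH045 libraries and 16.8, 24.1 and 32.2 CPM in the Vehicle libraries. Again no Vehicle library reached an SH045 library, and the log2 change was 1.38 ± 0.27 (SE; adjusted p = 0.0333, edgeR). With the length trend removed, neither was called: the log2 change was 1.29 (adjusted p = 0.0553) for Itgal and 1.02 (adjusted p = 0.156) for Kmt2a, while Wfdc17, Ear2, Ifitm2 and Btg1 were. The 12 marker genes of monocytes and neutrophils, cells rich in Itgal, summed in the members to 1488, 1176 and 1122 CPM with SH045 and 992, 912 and 931 CPM with Vehicle, higher with SH045 without overlap, with Chil3 at 0; 4 were tested, 0 called by edgeR or DESeq2 and 2 higher at an unadjusted p under 0.05 (Ly6c2 and Plac8). Among all genes 6.57% were higher at that unadjusted p. The 14 T and NK cell markers summed to 156, 73.8 and 40.7 CPM with SH045 and 52.4, 15.8 and 40.3 CPM with Vehicle, with overlap and SH045 library 1 the highest, as for Itgal. Without C1q UMIs the T and NK sums ran from 44.5 to 218 CPM with SH045 and from 5.99 to 40.5 CPM with Vehicle, without overlap. Their part in the Itgal change was not tested. In C1q macrophages alone, Itgal changed by 0.92 (adjusted p = 0.0396, edgeR) and Kmt2a by 0.90 (adjusted p = 0.00853, edgeR).

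**Figure D3:**
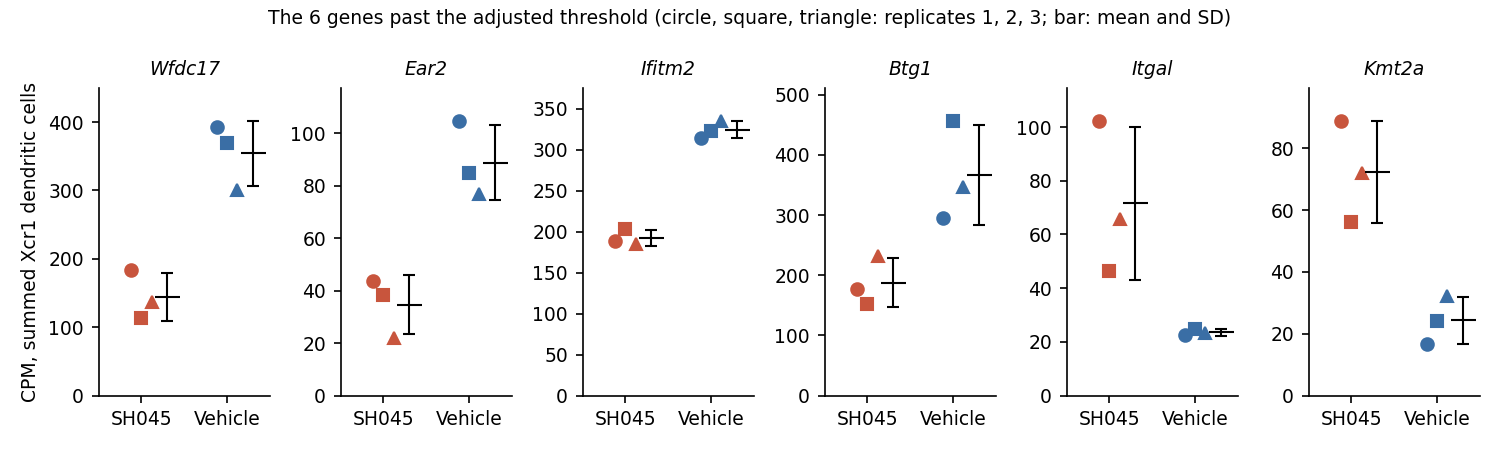
CPM of the 6 called genes summed over the Xcr1 dendritic cells of each library (vertical axis from 0); bars are the mean and SD of 3 libraries per group. The groups do not overlap in any of the 6, with Wfdc17 at most 183 CPM with SH045 and at least 301 CPM with Vehicle.

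Leaving out 1 library ended several of these calls. Wfdc17 was called without any 1 of the 6 libraries (adjusted p at most 0.0118), and Ear2 was lost without SH045 library 2 (adjusted p = 0.0583). Ifitm2 was lost without SH045 library 2, Vehicle library 2 or Vehicle library 3 (adjusted p = 0.0543, 0.0668 and 0.0922). Btg1 was lost without SH045 library 1 or 2 or Vehicle library 2 or 3 (adjusted p = 0.13, 0.156, 0.0677 and 0.0761). Itgal was lost without SH045 library 1 or any Vehicle library (adjusted p from 0.0677 to 0.237), and Kmt2a without any 1 library (adjusted p from 0.0742 to 0.131). The log2 changes kept their direction in all these fits. Other settings ended calls too. With at least 3 UMIs of Xcr1 plus Clec9a asked for, Ifitm2 was at -0.67 (adjusted p = 0.169) and Itgal at 1.36 (adjusted p = 0.0555). In members with no C1q UMI, Itgal and Kmt2a were at 1.28 and 1.25 and not called (adjusted p = 0.0884 for both), while Ifitm2 (-0.80, adjusted p = 0.039) and Btg1 (-1.24, adjusted p = 0.0179) were.

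**Figure D4:**
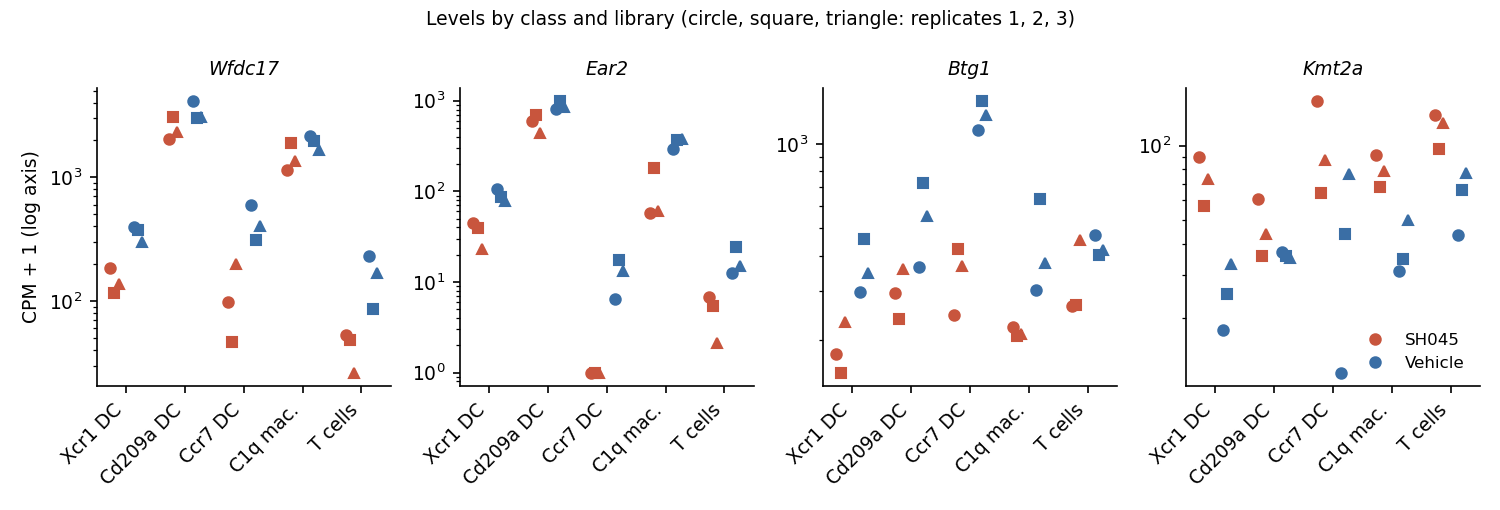
CPM plus 1 (log axis) of Wfdc17, Ear2, Btg1 and Kmt2a in 5 classes of cells, each point 1 library. Wfdc17 was lower in all 3 SH045 libraries than in all 3 Vehicle libraries in Xcr1 dendritic cells (114 to 183 against 301 to 393 CPM) and in T cells, and its level in Cd209a dendritic cells overlapped between groups.

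Genes that define the lineage showed no called change. This does not show them unchanged, since on simulated data the same fit found 45% of 2-fold changes. Of 27 identity genes 23 were tested apart from Xcr1 and Clec9a, with Cd207 and Cd8a too low. Of these edgeR and DESeq2 called 0, and edgeR gave an unadjusted p under 0.05 for 1 higher and 4 lower (beside 6.57% and 5.71% of all genes). The median log2 change was 0.09 against 0.01 for all genes. Irf8, without which the lineage does not form, stood at 2136, 1871 and 1740.2 CPM with SH045 and 1606, 1449 and 1551 CPM with Vehicle. All SH045 libraries were higher, yet the difference did not pass (log2 change 0.20, SE 0.15, adjusted p = 0.607). Batf3, which sustains Irf8 expression, stood at 201, 210.2 and 128 CPM with SH045 and 234, 215 and 223 CPM with Vehicle, lower without overlap and lowest in SH045 library 3 (log2 change -0.43, SE 0.17, adjusted p = 0.318). Id2, the third factor, overlapped with 1912, 1814 and 1693 CPM with SH045 and 1939, 1414 and 1718 CPM with Vehicle (log2 change -0.02, SE 0.16). Naaa overlapped at 2396, 2229.9 and 2354 CPM with SH045 and 2223, 2104 and 2282 CPM with Vehicle (log2 change -0.04, SE 0.15). So did Itgae at 363, 424 and 312 CPM with SH045 and 363, 388 and 386 CPM with Vehicle (log2 change -0.17, SE 0.15). Of the 23 tested, 7 did not overlap between groups, beside 19.2% of all genes. Wdfy4 had the smallest p among the higher members, with 539, 435 and 417 CPM with SH045 and 318, 312 and 379 CPM with Vehicle and no overlap (log2 change 0.34, SE 0.15, adjusted p = 0.356). With the length trend removed its log2 change was 0.042 (adjusted p = 0.944). Cadm1, an adhesion protein that engages a T-cell partner, had 188, 225 and 229 CPM with SH045 and 357, 228 and 248 CPM with Vehicle, where Vehicle library 1 alone was clearly above the rest (log2 change -0.47, SE 0.18, adjusted p = 0.318). Ppt1, a lysosomal thioesterase, had 1358, 1777 and 1762 CPM with SH045 and 2259, 1894 and 1939.8 CPM with Vehicle without overlap (log2 change -0.42, SE 0.17, adjusted p = 0.32).

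The remaining identity genes spread on both sides of 0. Hepacam2 was 97.4, 77.0 and 97.1 CPM with SH045 and 109, 92.1 and 135 CPM with Vehicle (log2 change -0.42, SE 0.20, adjusted p = 0.395), with overlap. Cd24a, a surface sialoglycoprotein, was 685, 479.7 and 484 CPM with SH045 and 423, 454 and 378 CPM with Vehicle (log2 change 0.26, SE 0.15, adjusted p = 0.48), and Ifi205 was 964, 866 and 829 CPM with SH045 and 657, 709 and 679 CPM with Vehicle (log2 change 0.26, SE 0.14, adjusted p = 0.458); neither overlapped, and neither passed. Tlr3 at 317, 202 and 166 CPM with SH045 and 149.7, 172 and 188 CPM with Vehicle (log2 change 0.28, SE 0.18, adjusted p = 0.534) had 1 high library, SH045 1. Flt3, the receptor for Flt3 ligand, was 201, 176 and 175 CPM with SH045 and 133, 136 and 173 CPM with Vehicle, apart by a narrow margin (log2 change 0.20, SE 0.16, adjusted p = 0.645). Itgax, the integrin CD11c, was 119, 30.5 and 48.6 CPM with SH045 and 31.8, 53.9 and 55.5 CPM with Vehicle, with SH045 library 1 highest and SH045 library 2 lowest (log2 change 0.28, SE 0.40). Log2 changes of Gcsam, Snx22, Rab7b, Btla, Ly75, Plpp1, Tbc1d8, Gpr33 and Zbtb46 ran from -0.32 for Snx22 to 0.35 for Gpr33, and each of these genes overlapped between groups. Of the 13 lineage transcription factors tested, edgeR and DESeq2 called 0 and edgeR gave 3 lower at an unadjusted p under 0.05: Spi1, which encodes PU.1, at 398, 435 and 468 CPM with SH045 and 532, 545 and 533 CPM with Vehicle (log2 change -0.42, SE 0.15, adjusted p = 0.287), Relb, a factor of dendritic cell maturation, at 16.8, 16.0 and 15.7 CPM with SH045 and 26.2, 24.9 and 32.2 CPM with Vehicle (log2 change -0.90, SE 0.34, adjusted p = 0.318), and Batf3. Spi1 and Relb did not overlap between groups. Of all genes, 5.71% were lower at an unadjusted p under 0.05.

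The ligands of these cells' 2 key receptors come from other cells. Xcl1 had 2239 UMIs in T cells, at 342, 381 and 227 CPM with SH045 and 557, 251 and 569 CPM with Vehicle, which overlap, and 4 UMIs in Xcr1 dendritic cells. Flt3l in T cells was at 48.6, 51.9 and 73.8 CPM with SH045 and 80.6, 46.5 and 62.1 CPM with Vehicle, again overlapping, and Xcr1 dendritic cells had 42 Flt3l UMIs.

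Several genes of antigen presentation on MHC class II lay lower with SH045, although none was called. Class II molecules are assembled on the chaperone Cd74, loaded with the help of H2-DM and tuned by H2-O. Of 16 listed genes 14 were tested, edgeR and DESeq2 called 0, and 9 had an unadjusted p under 0.05, all lower, against 5.71% of all genes lower at that p. The list's median log2 change was -0.41 against 0.01 for all genes. With no low-count filter H2-Ab1 (-0.67, adjusted p = 0.0161) and H2-DMb2 (-0.79, adjusted p = 0.025) were called by edgeR. Summed over the list, the members had 62968, 83488 and 77706 CPM with SH045 and 111007, 94052 and 92428 CPM with Vehicle; the groups did not overlap, with SH045 library 1 the lowest and Vehicle library 1 the highest.

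The promoters of H2-Aa and H2-DMb2 are shown because the class II genes lay lower together, and that of Ifitm2 because the gene was called. They are RefSeq sequences of the build GRCm38.p6, 5′ to 3′ on the gene's strand, from 250 bases before to 50 after the annotated start. Capitals mark GATTGG, the core of the Y box to which NF-Y binds in class II promoters, or GAAA followed by any 2 bases and GAAA, a form of the interferon-stimulated response element; both strands were searched and the motifs do not overlap.
H2-Aa, chr17:34287774-34288073, minus strand: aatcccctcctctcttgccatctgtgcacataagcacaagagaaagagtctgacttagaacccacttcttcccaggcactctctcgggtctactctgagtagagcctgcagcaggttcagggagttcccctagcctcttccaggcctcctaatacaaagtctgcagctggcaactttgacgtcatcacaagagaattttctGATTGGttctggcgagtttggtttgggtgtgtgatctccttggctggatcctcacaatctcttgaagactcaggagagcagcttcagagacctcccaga
H2-DMb2, chr17:34144999-34145298, plus strand: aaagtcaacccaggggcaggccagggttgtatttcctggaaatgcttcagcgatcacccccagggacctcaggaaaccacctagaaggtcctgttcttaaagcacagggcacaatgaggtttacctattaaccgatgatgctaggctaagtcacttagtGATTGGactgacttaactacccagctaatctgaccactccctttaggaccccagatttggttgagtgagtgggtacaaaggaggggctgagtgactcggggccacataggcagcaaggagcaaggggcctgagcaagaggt
Ifitm2, chr7:140955912-140956211, minus strand: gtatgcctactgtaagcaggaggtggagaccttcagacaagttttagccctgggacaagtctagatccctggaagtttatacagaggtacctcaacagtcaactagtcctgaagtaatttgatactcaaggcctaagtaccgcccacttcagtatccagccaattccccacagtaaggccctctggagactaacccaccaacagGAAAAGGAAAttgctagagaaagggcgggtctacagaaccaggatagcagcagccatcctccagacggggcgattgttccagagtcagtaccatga
The Y box letters begin 49 bases before the H2-Aa start and 91 before the H2-DMb2 start, and those in Ifitm2 begin 46 before its start. GATTGG was in 9 of the 13 class II genes with a promoter in the table and in 16.1% of 32851 promoters. The interferon element was in 18 of 28 interferon list genes with a promoter and in 3.44% of all. A match is a description of the letters, and binding was not measured.

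Among the chain genes, H2-Ab1, a class II beta chain, stood at 10957, 14356 and 12788 CPM in the SH045 libraries and 21235, 16762 and 16119.6 CPM in the Vehicle libraries (log2 change -0.61, SE 0.18, adjusted p = 0.227). All SH045 libraries were lower, and Vehicle library 1 was the highest. H2-Aa was 11328, 14424 and 12847 CPM with SH045 and 17294, 15246 and 15873 CPM with Vehicle (log2 change -0.43, SE 0.18, adjusted p = 0.335), and H2-Eb1 was 6951, 8758 and 8861 CPM with SH045 and 10532, 10500.1 and 10379 CPM with Vehicle (log2 change -0.46, SE 0.17, adjusted p = 0.315), both without overlap. Cd74 was 29608, 41477 and 39126 CPM with SH045 and 56649.9, 46699.6 and 45311 CPM with Vehicle (log2 change -0.53, SE 0.20, adjusted p = 0.304), also without overlap. In the loading group, H2-DMb2 had the smallest p of the list, at 128, 81.8 and 102 CPM with SH045 and 167, 163 and 144 CPM with Vehicle (log2 change -0.73, SE 0.18, adjusted p = 0.134); it is on the cDC2 marker list too. H2-DMa at 1169, 1526 and 1349 CPM with SH045 and 1918, 1747 and 1584 CPM with Vehicle and H2-DMb1 at 868, 1029.9 and 883 CPM with SH045 and 1259.6, 1027 and 1101 CPM with Vehicle had log2 changes of -0.48 and -0.39, the latter with overlap; H2-DMb1 and H2-DMb2 are near-identical copies, so reads may be split between them. H2-Ob, which restrains H2-DM, was 159.5, 167 and 139 CPM with SH045 and 225, 178 and 189.7 CPM with Vehicle (log2 change -0.45, SE 0.16, adjusted p = 0.3), and Ctss, the protease that trims Cd74, was 801, 762 and 876 CPM with SH045 and 1024, 930.2 and 882 CPM with Vehicle (log2 change -0.33, SE 0.15, adjusted p = 0.374). These 9 genes are the ones with an unadjusted p under 0.05. Ciita, the master activator of class II genes, lay the other way at 337, 218 and 233 CPM with SH045 and 170.3, 184 and 213 CPM with Vehicle (log2 change 0.34, SE 0.16, adjusted p = 0.408). The groups did not overlap in CPM, by a narrow gap and before TMM scaling. H2-Oa, Lgmn, Ifi30 and Ctsl overlapped or missed an unadjusted p of 0.05. The class II genes beyond H2-Ab1 and H2-DMb2 were named after their values were seen.

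Class II genes were lower in other classes too. In C1q macrophages alone H2-Ab1 changed by -0.56 (adjusted p = 0.039, edgeR) and H2-DMb2 by -1.20 (adjusted p = 0.0063, edgeR), and in T cells, which should lack class II, H2-Ab1 was 500.4, 243 and 525 CPM with SH045 and 1261, 1537 and 1335 CPM with Vehicle, with a change of -1.76 (adjusted p = 0.0457, edgeR); T cells had 8 of 8585 genes called (0.0932%). The effect on H2-Ab1 in Xcr1 dendritic cells minus that in macrophages was -0.09 ± 0.09 (SE; adjusted p = 0.927, edgeR), and minus that in Cd209a dendritic cells -0.24 ± 0.07 (SE; adjusted p = 0.419, edgeR). The T-cell values move with the result and their part in it was not tested; T cells held 1537 CPM at most against at least 10957 CPM in Xcr1 dendritic cells. With the length trend removed the list's median was -0.26 with 7 lower at an unadjusted p under 0.05 (4.78% of all genes), and in members with no C1q UMI it was -0.45 with 7 of 13 lower (5.3% of all genes).

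Class I and cross-presentation genes had a median near 0 and a lower sum. Of 28 listed genes 26 were tested, and edgeR and DESeq2 called 0. At an unadjusted p under 0.05, 2 were higher and 2 lower, beside 6.57% and 5.71% of all genes. The median log2 change was -0.08, or 0.01 with the length trend removed. Summed over the list the members had 13832, 14924 and 13629 CPM with SH045 and 15345, 15170.2 and 15109 CPM with Vehicle, lower with SH045 without overlap, as for class II. Psmb8, an immunoproteasome subunit, had the smallest p at 1457, 1635 and 1486 CPM with SH045 and 2092, 2103 and 1922 CPM with Vehicle with no overlap (log2 change -0.53, SE 0.15, adjusted p = 0.222). Ncf1, a subunit of the phagosomal NADPH oxidase, was higher at 99.1, 88.2 and 64.2 CPM with SH045 and 31.8, 63.9 and 42.9 CPM with Vehicle with no overlap (log2 change 0.67, SE 0.25, adjusted p = 0.301). Co-stimulation and checkpoint genes gave 0 called of 9 tested by edgeR and DESeq2, with a median of -0.03. Their smallest p-values were those of Cd83, which stabilises class II at the surface, at 55.4, 73.8 and 65.8 CPM with SH045 and 99.2, 80.5 and 88.6 CPM with Vehicle (log2 change -0.55, SE 0.22, adjusted p = 0.318), and Cd40, the receptor for T-cell help, at 20.1, 24.1 and 12.5 CPM with SH045 and 26.2, 29.9 and 31.3 CPM with Vehicle (log2 change -0.76, SE 0.34, adjusted p = 0.371). Both were lower without overlap and at low counts. Cytokine genes were scarce: 4 of 17 listed were tested, 0 were called by either tool and none had an unadjusted p under 0.05; Il1b at 33.6, 1.60 and 11.0 CPM with SH045 and 24.3, 32.4 and 13.4 CPM with Vehicle and Il18 at 40.3, 86.6 and 50.1 CPM with SH045 and 61.8, 77.2 and 54.6 CPM with Vehicle overlapped.

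Interferon-response genes, many of which these cells share with macrophages, lay around 0. Of 38 listed, 22 were tested, and neither edgeR nor DESeq2 called any or gave an unadjusted p under 0.05; the median log2 change was -0.06. Irf9, part of the interferon-activated factor ISGF3, was 121, 78.6 and 90.8 CPM with SH045 and 52.4, 74.7 and 68.0 CPM with Vehicle (log2 change 0.42, SE 0.21, adjusted p = 0.432), without overlap. Irgm1, an interferon-induced GTPase, was 72.2, 62.6 and 59.5 CPM with SH045 and 52.4, 96.3 and 80.5 CPM with Vehicle (log2 change -0.40, SE 0.23, adjusted p = 0.486), with overlap. Ifitm2 was not on this list.

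Chemokine genes had a lower median, and it moved with the C1q limit. Of 15 listed genes 11 were tested, edgeR and DESeq2 called 0, and the median was -0.78. At an unadjusted p under 0.05, 4 were lower, beside 5.71% of all genes. The groups did not overlap in 1 of the 11, beside 19.2% of all genes. Summed over the list the members had 1244, 921 and 576 CPM with SH045 and 938, 1271 and 995 CPM with Vehicle, which overlap. With the length trend removed 1 was lower, beside 4.78% of all genes, and the median was -0.86. Ccl12, a monocyte attractant, was 3.36, 3.21 and 4.70 CPM with SH045 and 18.7, 17.4 and 22.4 CPM with Vehicle, without overlap (log2 change -2.44, SE 0.53, adjusted p = 0.0643), and in C1q macrophages it was 879.9, 1123 and 1345 CPM with SH045 and 1946, 1328 and 1160.3 CPM with Vehicle. Ccl5, which attracts T cells, was 73.9, 30.5 and 36.0 CPM with SH045 and 170.3, 53.9 and 123 CPM with Vehicle, with overlap at Vehicle library 2 (log2 change -1.39, SE 0.50, adjusted p = 0.356). In members with no C1q UMI, 7 chemokine genes were tested, 0 had an unadjusted p under 0.05 and the median was -0.25.

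Macrophage genes in the members also lay lower. Of the complement and C1q macrophage list, leaving out the 3 C1q genes of the rule, 5 were tested and 0 were called by edgeR or DESeq2. At an unadjusted p under 0.05, 3 were lower, beside 5.71% of all genes, and the median was -0.58. Apoe, a lipid carrier abundant in macrophages, was 95.7, 129.9 and 157 CPM with SH045 and 221, 198 and 219 CPM with Vehicle (log2 change -0.84, SE 0.19, adjusted p = 0.0793), and Cd68, a lysosomal protein, was 199.8, 239 and 266 CPM with SH045 and 343, 325 and 310.5 CPM with Vehicle (log2 change -0.58, SE 0.16, adjusted p = 0.209). Neither overlapped between groups. The whole 17-gene list summed to 1187, 1287 and 1324 CPM with SH045 and 1651, 1577 and 1668 CPM with Vehicle in the members, without overlap; in members with no C1q UMI the sums ran from 1151 to 1326 CPM with SH045 and from 1254 to 1509 CPM with Vehicle. The part of these transcripts in the gene changes above was not tested beyond the values without C1q UMIs.

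Receptors and uptake genes gave few differences. Among receptors for growth, migration and danger, 15 of 30 were tested, edgeR and DESeq2 called 0, and 1 had an unadjusted p under 0.05, beside 12.3% of all genes. This was Csf2ra, the alpha chain of the GM-CSF receptor, at 126, 218 and 232 CPM with SH045 and 333, 267 and 249 CPM with Vehicle without overlap (log2 change -0.65, SE 0.22, adjusted p = 0.3). Its partner chain Csf2rb was 114, 78.6 and 70.5 CPM with SH045 and 58.0, 59.7 and 66.2 CPM with Vehicle, higher without overlap (log2 change 0.38, SE 0.21, adjusted p = 0.477). Among uptake genes 12 of 20 were tested, 0 were called by either tool, and the 2 lowest p-values were those of Clec7a, the receptor for fungal glucans, at 23.5, 3.21 and 4.70 CPM with SH045 and 22.5, 41.5 and 25.9 CPM with Vehicle (log2 change -1.71, SE 0.49, adjusted p = 0.227), and Cd81, a tetraspanin, at 109, 139.6 and 204 CPM with SH045 and 281, 218 and 195 CPM with Vehicle (log2 change -0.70, SE 0.23, adjusted p = 0.279). Both overlapped between groups.

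Nuclear and mitochondrial genes of respiration had medians on opposite sides of 0, while the sum of each list overlapped between groups. The nuclear list summed to 22606, 25028 and 22164 CPM with SH045 and 25446, 25051 and 24787 CPM with Vehicle. Oxidative phosphorylation genes encoded in the nucleus had a median log2 change of -0.24: all 55 were tested, edgeR and DESeq2 called 0, and 17 were lower at an unadjusted p under 0.05, beside 5.71% of all genes. These are short transcripts, and with the length trend removed the median was -0.08 with 8 lower, beside 4.78% of all genes, and 1 higher. Uqcr10, a subunit of complex III, was 425, 429.9 and 369.7 CPM with SH045 and 550.3, 507 and 483 CPM with Vehicle (log2 change -0.45, SE 0.14, adjusted p = 0.248), and Sdhb, of complex II, was 149, 178 and 189.5 CPM with SH045 and 238, 228 and 217 CPM with Vehicle (log2 change -0.51, SE 0.17, adjusted p = 0.254), both without overlap. The mitochondrially encoded list summed to 14387, 19546 and 24843 CPM with SH045 and 14458, 16561 and 16160 CPM with Vehicle, with SH045 library 1 the lowest. Of its 13 genes, mt-Nd3, mt-Nd4l, mt-Co3 and mt-Atp8 had no UMI in the members of any library. Of the 13, 7 were tested and 0 were called by edgeR or DESeq2, with a median of 0.29. At an unadjusted p under 0.05, 2 were higher, beside 6.57% of all genes. Those were mt-Nd2 at 1907, 2239.5 and 2924 CPM with SH045 and 1374, 1486 and 1489 CPM with Vehicle (log2 change 0.60, SE 0.18, adjusted p = 0.227) and mt-Nd5 at 1377, 1591 and 2187 CPM with SH045 and 849.7, 1188 and 1138 CPM with Vehicle (log2 change 0.59, SE 0.20, adjusted p = 0.272), both subunits of complex I and both without overlap. With the length trend removed mt-Nd2 was called (0.78, adjusted p = 0.0468, edgeR). The median mitochondrial share of UMIs per member was 1.94 ± 0.179% with SH045 and 1.85 ± 0.175% with Vehicle (SD, n = 3; exact permutation p = 0.5).

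The other lists showed small medians. Adhesion and actin genes had 1 call of 21 tested, Itgal, and a median of -0.09. At an unadjusted p under 0.05, 3 were higher and 3 lower, beside 6.57% and 5.71% of all genes. Yet the list summed to 68455, 70119 and 65410 CPM with SH045 and 75821, 76476 and 74988 CPM with Vehicle, lower with SH045 without overlap. The groups did not overlap in 7 of the 21 genes, beside 19.2% of all genes. Glycolysis and hypoxia genes had 0 of 13 called by edgeR and DESeq2, and a median of 0.06. At an unadjusted p under 0.05, 1 was higher, beside 6.57% of all genes. Pfkp, a phosphofructokinase, was 188, 119 and 135 CPM with SH045 and 84.2, 106 and 110.1 CPM with Vehicle (log2 change 0.41, SE 0.19, adjusted p = 0.386, and 0.13 with the length trend removed). Hk2, a hexokinase, was 78.9, 52.9 and 48.6 CPM with SH045 and 73.0, 73.9 and 65.3 CPM with Vehicle (log2 change -0.36, SE 0.22, adjusted p = 0.519). Immediate early and stress genes, which respond to tissue digestion, had 0 of 21 called by either tool and a median of -0.18. At an unadjusted p under 0.05, 1 was higher and 4 were lower, beside 6.57% and 5.71% of all genes. Removal of the length trend left 1 higher and 1 lower, beside 300 higher and 280 lower of 5900 genes outside the rule. Klf2 was 274, 314 and 218 CPM with SH045 and 356, 426 and 274 CPM with Vehicle (log2 change -0.51, SE 0.18, adjusted p = 0.283) and Ier2 was 138, 135 and 149 CPM with SH045 and 204, 184 and 148 CPM with Vehicle (log2 change -0.45, SE 0.17, adjusted p = 0.318), each with overlap. On the list of TRPC channels and the calcium to NFAT route, the 9 tested genes had 0 calls by edgeR and DESeq2, no unadjusted p under 0.05 by edgeR and 1 by DESeq2; the smallest edgeR p-value was that of Ppp3cb, a calcineurin subunit, at 60.4, 40.1 and 25.1 CPM with SH045 and 28.1, 25.7 and 19.7 CPM with Vehicle, with overlap (log2 change 0.66, SE 0.32, adjusted p = 0.412).

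**Figure D5:**
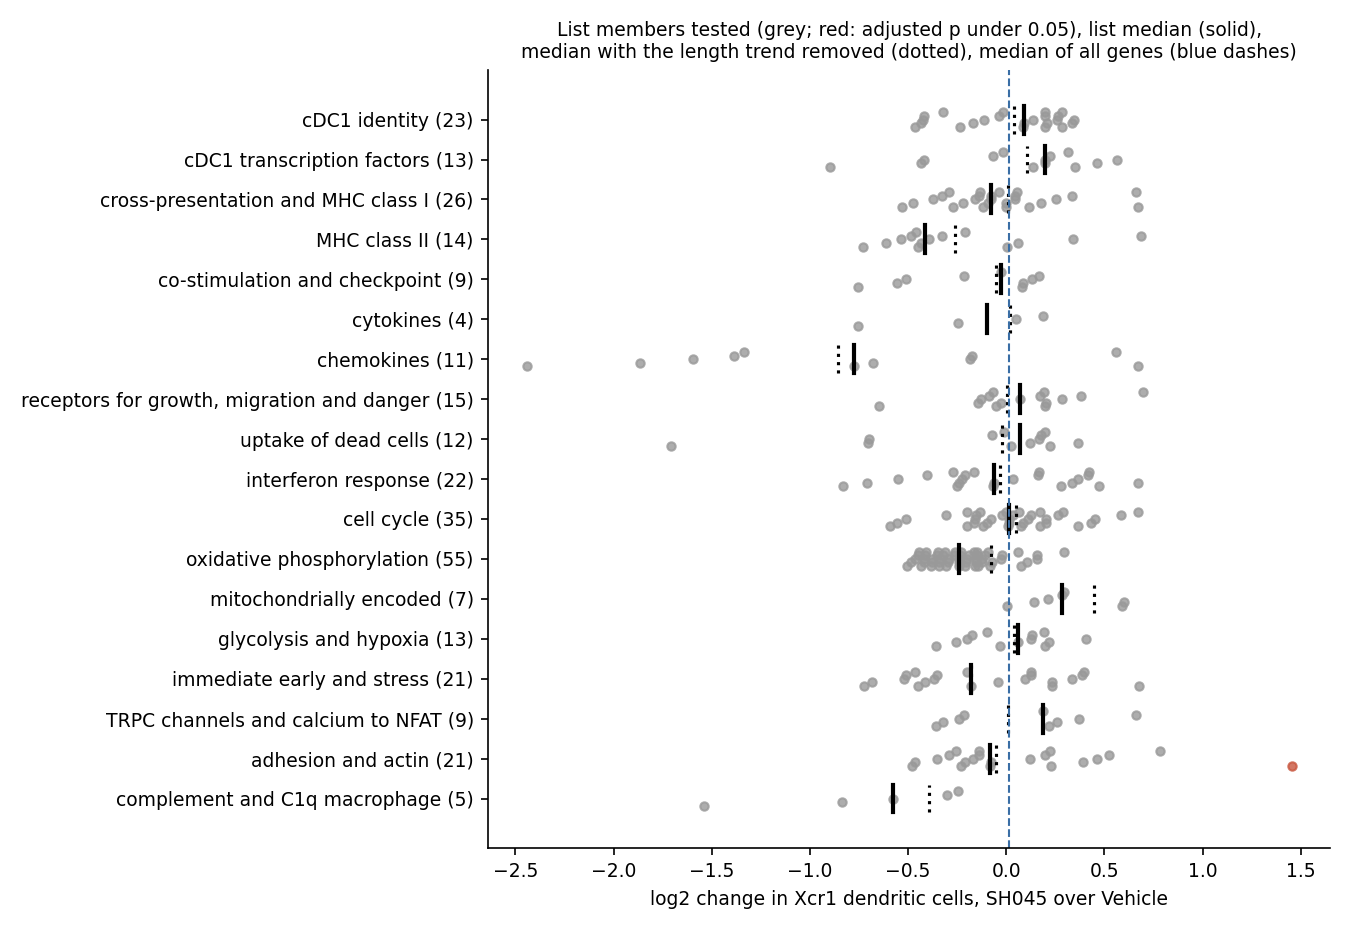
Log2 change (SH045 over Vehicle) in Xcr1 dendritic cells of each tested gene in 18 lists with at least 4 tested genes; solid bars are list medians, dotted bars medians with the length trend removed, and the dashed line the median of all genes. MHC class II lies at a median of -0.41 and oxidative phosphorylation at -0.24, which moves to -0.08; Itgal is the called point.

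Whether a gene's change differed from that in other cells was tested directly, as an interaction with the library as a block. On simulated data the comparison with macrophages made false calls more often than its adjusted threshold allows, so its genes are less certain than their p-values say. Against C1q macrophages 11 of 11045 genes passed (0.0996%), 6 with a higher (0.0543%) and 5 with a lower effect (0.0453%) in Xcr1 dendritic cells. Tmsb10, which binds actin monomers, was 3118, 3436 and 3932 CPM with SH045 and 2418, 3259 and 4015 CPM with Vehicle in Xcr1 dendritic cells, which overlap, and 442, 516 and 543 CPM with SH045 and 530.4, 835 and 932 CPM with Vehicle in macrophages. The difference of effects was 0.72 ± 0.10 (SE; adjusted p = 0.000186, edgeR). Crip1, a LIM-domain protein, was 3571, 4476 and 3872 CPM with SH045 and 4548, 4244 and 4455 CPM with Vehicle in Xcr1 dendritic cells and 752, 1189.9 and 708 CPM with SH045 and 1783, 1829 and 1797 CPM with Vehicle in macrophages, where every SH045 library was lower. That difference was 0.91 ± 0.12 (SE; adjusted p = 0.000186, edgeR). For Vim, the filament protein vimentin, the values were 693, 479.7 and 587 CPM with SH045 and 356, 427 and 446 CPM with Vehicle in Xcr1 dendritic cells and 313, 258 and 231 CPM with SH045 and 292, 410.0 and 357 CPM with Vehicle in macrophages, a difference of 0.91 ± 0.13 (SE; adjusted p = 0.000186, edgeR). The 10 fibroblast and pericyte markers, cells rich in Vim, summed in the Xcr1 dendritic cells to 21.8, 43.3 and 47.0 CPM with SH045 and 13.1, 4.98 and 8.05 CPM with Vehicle, without overlap and with Postn at 0, and none reached the count needed to be tested; their part in Vim was not tested. Unc119, a carrier of lipid-modified proteins, differed by 1.16 ± 0.18 (SE; adjusted p = 0.000489, edgeR) and the actin-binding Tagln2 by 0.78 ± 0.16 (SE; adjusted p = 0.0319, edgeR). In these 5 genes the macrophages' own change was negative, from -1.17 (adjusted p = 0.0115, edgeR) for Crip1 to -0.45 (adjusted p = 0.0537, edgeR) for Tagln2. The differences for Tmsb10, Crip1, Vim and Unc119 passed without any 1 library, and that for Tagln2 was lost without SH045 library 1 or 3 or Vehicle library 1 or 2 (adjusted p up to 0.187).

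In the other direction, Apoe gave -0.93 ± 0.14 (SE, adjusted p = 0.00338, edgeR): it was lower in Xcr1 dendritic cells of SH045 mice, while macrophages held 19114, 22776 and 22668 CPM with SH045 and 21978, 18787 and 16745 CPM with Vehicle. The differences of effects were computed on all members and not on those with no C1q UMI. The part of macrophage transcripts among the members in these differences was thus not tested. Ccl12 gave -2.06 ± 0.40 (SE; adjusted p = 0.0257, edgeR) and Clec4a2, a C-type lectin receptor on the cDC2 marker list, -2.22 ± 0.43 (SE; adjusted p = 0.0257, edgeR); both are scarce in Xcr1 dendritic cells, Clec4a2 with 10.1, 1.60 and 1.57 CPM with SH045 and 22.5, 21.6 and 23.3 CPM with Vehicle. Cst3, the protease inhibitor cystatin C that conventional dendritic cells make in bulk, was 22892, 29547 and 27906 CPM with SH045 and 36996, 32002 and 29415 CPM with Vehicle and gave -0.43 ± 0.09 (SE; adjusted p = 0.0319, edgeR). In macrophages the Cst3 change was -0.00 (adjusted p = 0.993, edgeR). Of these, Apoe passed without any 1 library; Ccl12 and Clec4a2 were lost without SH045 library 2 or 3 or Vehicle library 3 (adjusted p up to 0.309 and 0.117), and Cst3 without SH045 library 2 or Vehicle library 1 or 2 (up to 0.231). The macrophages themselves had 1347 of 12473 genes called (10.8%), from many more cells, so that count and the 6 in Xcr1 dendritic cells differ in depth.

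Against Cd209a dendritic cells 12 of 7065 genes passed (0.17%), 8 with a higher (0.113%) and 4 with a lower effect (0.0566%) in Xcr1 dendritic cells. Ly6a, a surface protein induced by interferon, was 50.4, 94.6 and 102 CPM with SH045 and 52.4, 69.7 and 68.9 CPM with Vehicle in Xcr1 dendritic cells and 55.6, 47.7 and 45.2 CPM with SH045 and 79.1, 163 and 205 CPM with Vehicle in Cd209a dendritic cells, where no SH045 library reached a Vehicle library; the difference was 1.98 ± 0.31 (SE; adjusted p = 0.000326, edgeR) and passed without any 1 library. Rn7sk, the RNA that holds back transcription elongation, was 205, 125 and 191 CPM with SH045 and 251, 303 and 264 CPM with Vehicle in Xcr1 dendritic cells, without overlap, and 421, 221 and 274 CPM with SH045 and 262, 325 and 226 CPM with Vehicle in Cd209a dendritic cells, with overlap; the difference was -0.86 ± 0.17 (SE; adjusted p = 0.00831, edgeR). Rrm2, a ribonucleotide reductase subunit needed for DNA synthesis, was 78.9, 44.9 and 32.9 CPM with SH045 and 76.7, 78.0 and 50.1 CPM with Vehicle in Xcr1 dendritic cells. In Cd209a dendritic cells it was 71.5, 32.5 and 9.51 CPM with SH045 and 20.1, 10.8 and 5.86 CPM with Vehicle, and the difference was -2.02 ± 0.45 (SE; adjusted p = 0.0328, edgeR). Both Rn7sk and Rrm2 missed the threshold without SH045 library 1 or 2 or Vehicle library 2 or 3, with adjusted p from 0.051 to 0.244 for Rn7sk and from 0.237 to 0.436 for Rrm2 (edgeR). Cd209a dendritic cells had 4 of 7147 genes called (0.056%), none of them among the 6 genes of Xcr1 dendritic cells. For those 6 genes the difference of effects missed the threshold in both comparisons, with adjusted p between 0.117 and 0.993 (edgeR), which does not show that the classes changed alike.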

How the data were processed

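The deposited values are counts of UMIs per gene and cell barcode, which the authors made for each of 6 single-cell libraries, 1 per mouse; per the submitters' processing notes the build was mm10, and no source used here names the aligner, counter, annotation or cell calling. The tables held 3823 to 4558 barcodes per library with no fewer than 2166 UMIs each. The cells, gene lists and tests were chosen with earlier results of these data known. UMIs were summed over the chosen cells of each library and tested with edgeR 4.0.16 (quasi-likelihood, TMM scaling, filterByExpr, robust, Benjamini-Hochberg over all genes tested), with DESeq2 1.42.0 as an alternative. The edgeR fits were tested on simulated data first. There the fit within Xcr1 dendritic cells found 45% of 2-fold and 88% of 4-fold changes. The comparisons with Cd209a dendritic cells and with macrophages found 11% and 5% of 2-fold changes, and each found 59% of 4-fold changes. Differences between classes of cells were tested as a class by treatment interaction with the library as a block. Shares were compared by two-sided exact permutation of the 6 libraries, and intervals are Clopper-Pearson at 95%. CPM was computed from the sums without TMM scaling.

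Classes used for comparison were Cd209a dendritic cells (at least 2 Cd209a UMIs and under 2 of Xcr1 plus Clec9a), Ccr7 dendritic cells (at least 3 of Ccr7 plus Fscn1), C1q macrophages (over 5 C1q UMIs) and T cells (at least 2 UMIs of Cd3e, Cd3d, Cd3g and Trac), 1025, 303, 9720 and 1120 barcodes. Doublets were treated by these limits alone; of the members, 17 were in the top 5% of Scrublet scores of their library (scanpy 1.11.5), and removing those is an alternative. Named genes are the identity list, up to 10 called rises and 10 called falls whose groups did not overlap, the called genes of each list or else its 2 smallest p-values, and up to 5 genes per direction past each interaction test, without unnamed gene models; some genes of the calcium list are not reported here. Replicate numbers are numbers only: same-numbered libraries came from different mice.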

Additional observations from a re-analysis of the deposited data

Results flagged for a closer look

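These genes stand out because the effect of SH045 in Xcr1 dendritic cells differed from that in another class of the same libraries by edgeR's interaction test; each value is the log2 effect in Xcr1 dendritic cells minus that in the other class. Against C1q macrophages the difference was 0.72 (SE 0.10, adjusted p = 0.000186) for Tmsb10, 0.91 (SE 0.12, adjusted p = 0.000186) for Crip1, 0.91 (SE 0.13, adjusted p = 0.000186) for Vim, 1.16 (SE 0.18, adjusted p = 0.000489) for Unc119 and 0.78 (SE 0.16, adjusted p = 0.0319) for Tagln2. On the lower side it was -0.93 (SE 0.14, adjusted p = 0.00338) for Apoe, -2.06 (SE 0.40, adjusted p = 0.0257) for Ccl12, -2.22 (SE 0.43, adjusted p = 0.0257) for Clec4a2, -0.43 (SE 0.09, adjusted p = 0.0319) for Cst3 and -6.58 (SE 1.28, adjusted p = 0.0257) for Ptprb, an endothelial phosphatase. None of these differences was computed on members with no C1q UMI. Ptprb was scarce in Xcr1 dendritic cells, with 0, 1.60 and 0 CPM with SH045 and 0, 5.81 and 27.7 CPM with Vehicle, and lost its call without SH045 library 1 or 3 or Vehicle library 3.

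Against Cd209a dendritic cells the largest difference was that of Ly6d, 7.61 (SE 0.96, adjusted p = 4.36e-06). Ly6d, a surface protein of B cells and plasmacytoid dendritic cells, was 8.40, 38.5 and 6.27 CPM with SH045 and 0, 0.830 and 8.95 CPM with Vehicle in Xcr1 dendritic cells, where SH045 library 2 was the highest and the groups overlapped. In Cd209a dendritic cells it was 0, 2.17 and 0 CPM with SH045 and 34.2, 22.3 and 58.6 CPM with Vehicle, with every Vehicle library higher. Klk1, a kallikrein on the same plasmacytoid marker list, differed by 4.99 (SE 0.75, adjusted p = 0.000166), with 10.1, 43.3 and 116 CPM with SH045 and 5.61, 5.81 and 7.16 CPM with Vehicle in Xcr1 and 7.95, 2.17 and 4.76 CPM with SH045 and 6.04, 26.9 and 12.9 CPM with Vehicle in Cd209a dendritic cells; its call was lost without SH045 library 3. The plasmacytoid marker list summed in Xcr1 dendritic cells to 284, 420.3 and 501 CPM with SH045 and 213, 259.7 and 299 CPM with Vehicle, with overlap. Without C1q UMIs the sums ran from 312 to 658 CPM with SH045 and from 193 to 238 CPM with Vehicle, without overlap. There 2 of its genes were tested, and 2 were higher at an unadjusted p under 0.05 by edgeR, beside 279 of 4583 genes outside the rule. The part of this list in the values of Ly6d and Klk1 was not tested.

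The remaining differences against Cd209a dendritic cells were 1.98 (SE 0.31, adjusted p = 0.000326) for Ly6a, 5.48 (SE 1.05, adjusted p = 0.00818) for Tmem52b, 3.24 (SE 0.59, adjusted p = 0.00818) for Fn1, -2.31 (SE 0.45, adjusted p = 0.00818) for Clec4a2, -2.68 (SE 0.51, adjusted p = 0.00818) for AA467197, -0.86 (SE 0.17, adjusted p = 0.00831) for Rn7sk and -2.02 (SE 0.45, adjusted p = 0.0328) for Rrm2. Fn1, fibronectin, rested on 1 library: it was 65.5, 0 and 3.13 CPM with SH045 and 3.74, 2.49 and 2.68 CPM with Vehicle in Xcr1 dendritic cells, and without SH045 library 1 the difference was 1.18 (adjusted p = 0.922, edgeR). Tmem52b, Clec4a2 and AA467197 also lost their calls without 1 or more libraries.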

How the results depend on the processing

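The log2 ratio of the share among kept barcodes was -0.093 with a C1q limit of 0, against -0.47, and from -0.65 to -0.34 leaving out each library; the groups did not overlap with a marker minimum of 1, a common UMI minimum or the top Scrublet scores removed. The share among dendritic barcodes and the ratio to Cd209a dendritic cells kept their direction in all 16 alternatives, those of the ratio being added after seeing the data (log2 1.02 to 1.64). The share with Mki67 or Top2a turned to -0.090 when at least 3 UMIs over the cell cycle list were asked for, and ran from 0.05 to 0.74 leaving out each library. Called genes numbered 6, 48 with no low-count filter (6 shared) and 2 to 14 leaving out each library, with 2 without SH045 library 2 or Vehicle library 3, 14 without SH045 library 1 and 11 without SH045 library 3. The difference against Cd209a dendritic cells gave 12 genes, 34 with no filter and 6 to 29 leaving out each library (29 without SH045 library 1). That against macrophages gave 11, 67 with no filter, 19 with the length trend removed and 12 to 31 leaving out each library. Among the 6 called genes, DESeq2 gave no adjusted p for Ear2, Itgal and Kmt2a. The causes of these changes were not tested.

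With the replicate block there were 9 called genes (4 shared), and the log2 ratios were -0.45 (exact p = 0.5) for the share among kept barcodes, 0.50 (exact p = 0.25) among dendritic barcodes, 1.36 for the ratio to Cd209a dendritic cells and 0.41 (exact p = 0.75) for Mki67 or Top2a. Same-numbered libraries correlated at -0.0996, -0.0539 and 0.0862 in their deviations from the group means, so the pairing has no support; Itgal and Kmt2a missed the threshold under the block (adjusted p = 0.102 and 0.0902, edgeR).

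Over 90 named genes and differences, 1199 alternative values were computed: 1088 kept their direction and side of the threshold, 63 lost and 20 gained the threshold, the gains being those of H2-DMb2, H2-Ab1, Ccl12, Ccl5, Csf2ra, Clec7a, Cd81, Apoe, Clec4a2 and Rn7sk with no low-count filter, of mt-Nd2 with the length trend removed, of Rn7sk with a marker minimum of 3 or a C1q limit of 0, of Ccl5 under the block or without Vehicle library 2, of Clec7a, mt-Nd2 and Clec4a2 without SH045 library 1, and of Cd81 and Apoe without SH045 library 3, and 28 changed sign, none of these in the 6 called genes. With the length trend removed the sign turned for Naaa (0.040), Ly75 (-0.031), Plpp1 (0.052), Tbc1d8 (-0.021), Id2 (0.11) and Zbtb46 (-0.024), and with a C1q limit of 0 for Btla (-0.011), Ly75 (-0.38) and Plpp1 (0.074). Leaving out each library, log2 changes ran from -0.0077 to 0.15 for Btla, from -0.11 to 0.45 for Ly75, from -0.14 to 0.30 for Tbc1d8, from -0.12 to 0.65 for Gpr33, from -0.13 to 0.079 for Id2, from -0.073 to 0.29 for Zbtb46, from -0.37 to 0.59 for Itgax, from -0.66 to 0.0019 for Il18 and from -0.17 to 0.18 for Tmsb10. Ly6a was at -0.068 with the top 5% of Scrublet scores removed. Tmsb10 within Xcr1 dendritic cells was at -0.0022 with DESeq2 size factors, -0.058 with no filter, -0.00071 at a mitochondrial limit of 20%, -0.032 with a C1q limit of 0, -0.0053 with the top Scrublet scores removed and -0.0020 in DESeq2. Cells per library, 101 to 202, limit what the genes of low count can show.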
